A study of Homo sapiens with 2 samples.

Results

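The genes described here are mainly those of potassium, calcium, sodium, chloride and transient receptor potential (TRP) channels and their auxiliary subunits, measured in a human melanoma line. They are the genes of probes that name 1 gene and carry a symbol starting with KCN, SCN and a digit, CACN, CLCN, CLIC, TRPC, TRPM, TRPV or PKD2, apart from 1 gene that the rule leaves out. This gave 235 probes for 173 genes, out of 25650 probes and 19412 genes in the whole table. Through their symbols, the 173 include 2 non-coding RNAs and TRPC4AP, an adaptor protein. The rule reads symbols and no measured value. A gene was called expressed when its brightest probe read 100 or more in either line, and 23 of the 173 genes were.

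A375SM is a melanoma line selected for high metastatic capacity. Both cell populations had been transduced with a lentivirus and sorted for the brightest 50% of GFP-expressing cells. One carried a short hairpin RNA (shRNA) labelled NFAT1, against the transcription factor encoded by NFATC2, and the other a non-targeting shRNA, labelled NT. RNA was amplified, coupled to Cy5 and hybridized to single-colour arrays, with 3 biological replicates per line stated. The deposited table combines these into 1 intensity for a line at each probe, with an error that is printed here after ±, which leaves no replicate spread to compute. What kind of error it is was not stated.

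Ion channels are membrane proteins that let ions pass down their gradients. Potassium and chloride channels help to set the membrane potential and cell volume, while voltage-gated calcium channels and many TRP channels let calcium in. Raised calcium activates the phosphatase calcineurin, which removes phosphates from NFAT factors and lets them enter the nucleus. Among the channels followed in melanocytes and melanoma are TRPM7, TRPM8, the calcium-activated potassium channels and the L-type and T-type calcium channels.

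The targeted gene's brighter probe did not read lower. For NFATC2 it gave 279 ± 15.7 in cells labelled NFAT1-shRNA and 199 ± 15.2 in NT-shRNA cells. Of NFAT1-shRNA over NT-shRNA, the authors' deposited table lists a log2 ratio of 0.12, and the confidence interval computed from the deposited errors (95% CI) ran from -0.15 to 0.39. The other NFATC2 probe was detected in neither line, with 41.6 ± 9.55 in NFAT1-shRNA cells and 57.8 ± 10.6 in NT-shRNA cells, and the authors' deposited table put it at -0.23 (95% CI -1.06 to 0.60). At its detected probe this gene did not bear out the label, so every direction below is between the lines as labelled. Of 9 melanocyte and melanoma markers all were at 100 or more in either line, as were 2 of 4 keratinocyte and 2 of 5 fibroblast markers. None of 4 leukocyte, 3 endothelial, 3 neuronal or 4 muscle markers was detected in either line, detection being a detection p-value under 0.01. Of 8 melanocyte markers with a ratio, TYR and DCT rose, where 3.35% of all genes were called higher. The other 6 did not pass, with log2 ratios of -0.50 for MITF, -0.29 for MLANA, 0.01 for SOX10, 0.10 for S100A1, 0.13 for PMEL and 0.43 for S100B. The list's median in the authors' deposited table was 0.12. TYRP1 has no ratio there and was detected in the NFAT1-shRNA line only. It read 138 ± 25.6 in NFAT1-shRNA cells and 15.8 ± 4.97 in NT-shRNA cells. The uncentred intensities of the list of 9 summed to 3837 in NFAT1-shRNA cells and 2431 in NT-shRNA cells. The fibroblast list summed to 8203 and 1596, of which 6267 ± 7799 in the NFAT1-shRNA line was DCN, detected in neither line. The part of these markers in the channel results was not tested. In such bulk RNA, fewer cells with a transcript and less of it per cell cannot be told apart.

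Most channel genes gave little signal. The 23 expressed genes are 13.3% of the channel genes, whereas 36.7% of all genes on the array read 100 or more in either line. Of the 150 genes below 100, 141 were detected in neither line, and the median intensity of the 150 was 7.98 in NFAT1-shRNA cells and 6.97 in NT-shRNA cells. By family, 3 of 6 TRPV genes, 3 of 7 TRPM genes, 2 of 7 CLC genes, 1 of 5 CLIC genes and 3 of 30 pore-forming voltage-gated potassium channel genes were expressed. The last 3 include KCNH7, which was detected in neither line. None of 15 genes of 2-pore-domain potassium channels, 10 of pore-forming sodium channels, 7 TRPC genes, 4 of calcium channel alpha2delta subunits or 3 of polycystin-2 and its relatives was. An intensity depends on the probe as well as the transcript, so intensities of different genes are not ranked here. Just inside the limit stood KCNMA1, with 108 in NFAT1-shRNA and 106 in NT-shRNA cells, and TRPM8, with 86.0 and 114. Just outside it were KCNT1, with 96.8 and 87.8, and KCNJ4, with 92.3 and 86.1.

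**Figure D1:**
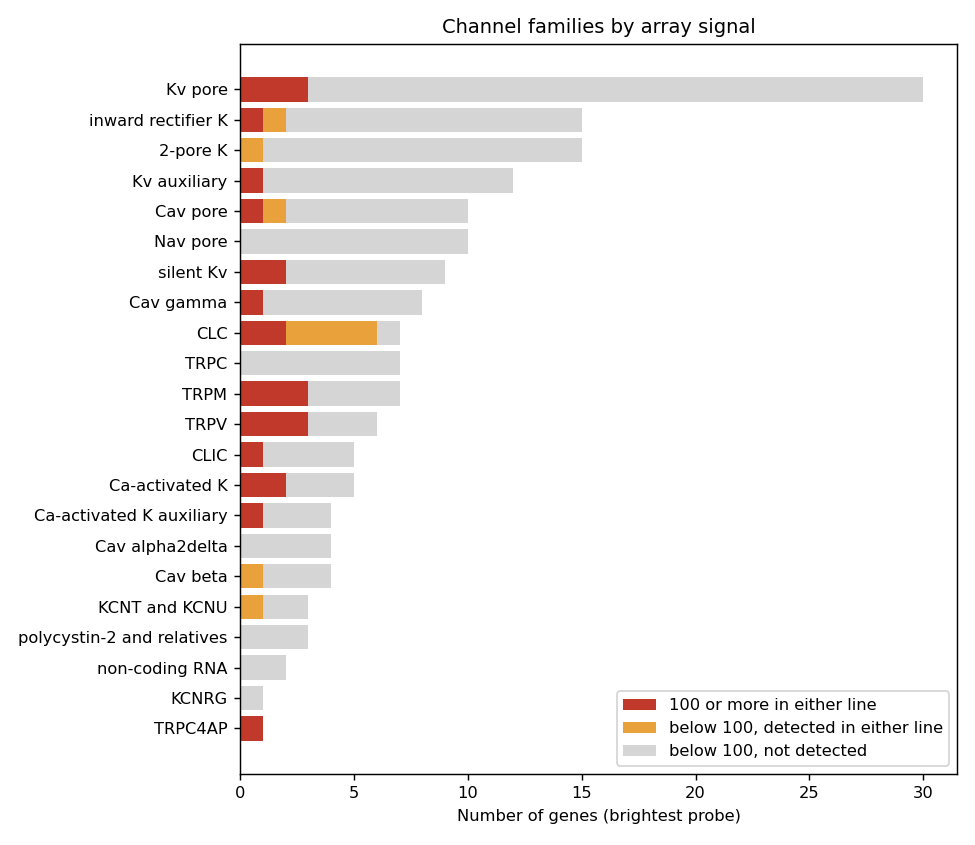
Number of genes per channel family (horizontal axis) by array signal of the gene's brightest probe, for the families drawn. Different colours mark genes at 100 or more in either line, genes below 100 but detected in either line, and genes below 100 and not detected. The pore-forming voltage-gated potassium (Kv) genes are the largest family with 30 members, of which 3 reached 100. KCNH7 is among these 3 and was detected in neither line.

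Between the lines, cells labelled NFAT1-shRNA had 1 channel gene higher and 3 lower. CLCN2, a chloride channel of the plasma membrane, rose 2.98-fold by the authors' deposited table. TRPV4 and TRPV2, calcium-permeable TRP channels, fell, and CLCN1, the chloride channel of skeletal muscle, fell at a signal below 100. These calls use p-values from the authors' deposited table, adjusted by the Benjamini-Hochberg method over the 9516 genes with a ratio and taken as changed under 0.05. That threshold called 4 of the 43 channel genes with a ratio (9.30%), where it called 7.55% of all genes (3.35% higher and 4.19% lower). The count of channel genes is thus near the background. Among genes at 100 or more in either line the threshold called 3 of 22 channel genes (13.6%). Of all such genes 9.79% were called (4.32% higher and 5.47% lower). How the deposited p-values were computed was not stated.

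**Figure D2:**
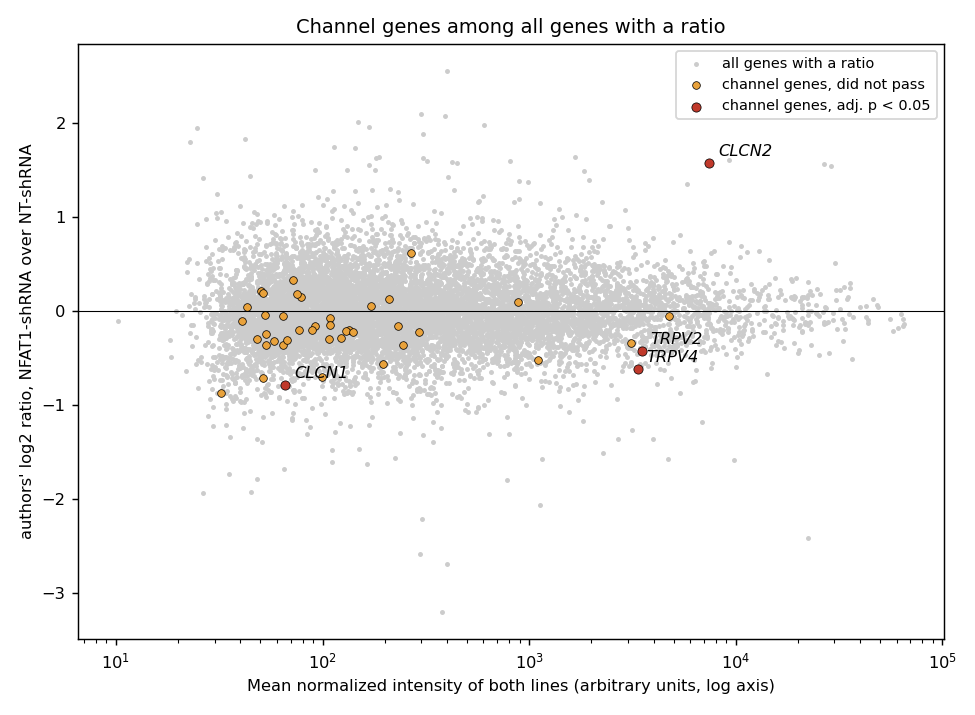
Log2 ratio, NFAT1-shRNA over NT-shRNA, from the authors' deposited table (vertical axis) against the mean normalized intensity of both lines (log axis), for all 9516 genes with a ratio (grey) and the 43 channel genes (coloured). CLCN2 stands at 1.57 among bright genes, TRPV4 at -0.62, TRPV2 at -0.42, and CLCN1 at -0.78 among dim ones.

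The CLC family holds chloride channels of the plasma membrane and chloride-proton exchangers of endosomes and lysosomes. CLCN2 (Entrez gene 1181), a channel opened by hyperpolarization, read 11631 ± 1110 in NFAT1-shRNA cells and 3241 ± 642 in NT-shRNA cells. The ranges of value and error did not overlap, and 56.7% of all genes at 100 or more were likewise apart and higher in NFAT1-shRNA cells. On the log2 scale the authors' deposited table put this ratio at 1.57 (95% CI 0.95 to 2.20; adjusted p = 0.00280). Of 1889 genes with a mean intensity of 1000 or more, CLCN2 was 1 of 3 with a ratio this high in the authors' deposited table. Its deposited errors were 9.55% and 19.8% of the signal, where the medians over those genes were 6.09% in NFAT1-shRNA cells and 7.93% in NT-shRNA cells. The value rests on 1 probe.

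No other CLC gene passed as higher on the authors' scale. In values given as one against another, the NFAT1-shRNA line comes first. CLCN7, the lysosomal exchanger, read 2983 ± 152 against 3206 ± 265, and these ranges overlapped. For CLCN7 the authors' deposited table holds a log2 ratio of -0.34 (95% CI -0.61 to -0.06; adjusted p = 0.251), which did not pass. CLCN1 (Entrez gene 1180) read 53.7 ± 7.28 against 77.6 ± 8.05 and was detected in the NT-shRNA line only. The authors' deposited table lists it with a log2 ratio of -0.78 (95% CI -1.27 to -0.30; adjusted p = 0.04996), so the call lies at the threshold. The NT-shRNA value of CLCN1 was below the dimmest signal still detected in the NFAT1-shRNA cells, 78.3. It was 1.22-fold above that signal only once the median shift of 1.23-fold was removed, with the errors left out. With p-values adjusted over all probes the CLCN1 call was lost, at an adjusted p of 0.0525, and it was lost with the plain quotient of the intensities, at 0.0992. The call was kept with that quotient centred on the median gene, at 0.0126. It was also kept with an offset of 50 added before centring, at 0.00273.

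The endosomal exchangers CLCN3, CLCN5 and CLCN6 stayed below 100 and none passed on the authors' scale. CLCN3 passed as higher with the plain quotient, which called 22.4% of all genes higher. CLCN3 read 90.7 ± 7.21 against 67.4 ± 5.66, and the authors' deposited table put its log2 ratio at 0.15 (95% CI -0.17 to 0.48). CLCN5 read 87.1 against 62.6 and CLCN6 86.4 against 57.6, both detected in the NFAT1-shRNA line only. The brightest CLCN6 probe had a log2 ratio of 0.33 and another CLCN6 probe, not detected in either line, -0.48 in the authors' deposited table. CLCN4 was not detected.

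Promoter sequences from RefSeq are shown for the CLC genes that passed, since these stand for opposite directions in 1 family. The windows are the 250 bases before the annotated start on GRCh38.p14, read 5′ to 3′ on the gene's strand, at chr3:184361606-184361855 on the minus strand for CLCN2 and chr7:143315861-143316110 on the plus strand for CLCN1. Capitals mark GGAAA, the core of NFAT binding sites, and TATAAA, the core of the TATA box, each on either strand.
CLCN2: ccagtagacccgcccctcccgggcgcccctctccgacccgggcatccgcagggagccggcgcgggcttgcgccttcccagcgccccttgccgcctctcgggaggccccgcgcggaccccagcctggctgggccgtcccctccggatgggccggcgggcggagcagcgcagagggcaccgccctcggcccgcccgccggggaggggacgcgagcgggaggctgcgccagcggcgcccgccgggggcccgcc
CLCN1: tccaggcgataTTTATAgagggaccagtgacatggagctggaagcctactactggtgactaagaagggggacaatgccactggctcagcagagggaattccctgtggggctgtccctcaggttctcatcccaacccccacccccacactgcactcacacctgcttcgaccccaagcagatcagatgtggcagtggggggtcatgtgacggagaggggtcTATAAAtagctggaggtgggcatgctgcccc

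The windows differ in composition. That of CLCN2 is 83.2% G and C with 36 CG pairs, a G and C share reached by 1.05% of all windows, and that of CLCN1 is 57.6% G and C with 3 CG pairs. CLCN1 has 2 matches to TATAAA, which 10.7% of all 35116 windows hold, and the capitals nearer the start begin 31 bases before it. Neither window holds GGAAA, which 55.6% of all windows and 53.3% of the 195 windows of 126 channel genes in the table hold. Neither holds TGANTCA, the core of AP-1 binding sites, found in 6.57% of all windows. A match or its lack in these letters says nothing about binding.

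The TRPV family of calcium-permeable channels responds to heat, swelling and lipids, and its expressed members were lower or did not pass. TRPV4 (Entrez gene 59341), opened by warmth, cell swelling and mechanical load, read 2916 ± 138 in NFAT1-shRNA cells and 3776 ± 159 in NT-shRNA cells. Value and error of the lines did not overlap. For TRPV4 the authors' deposited table put the log2 ratio at -0.62 (95% CI -0.79 to -0.44; adjusted p = 2.35e-05), which makes TRPV4 1.53-fold higher in NT-shRNA cells. Of the 1889 genes with a mean intensity of 1000 or more, TRPV4 was 1 of 49 (2.59%) with a ratio this low. It kept this direction and passed with the plain quotient of the intensities, with that quotient centred on the median gene, and with an offset of 50 added first.

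TRPV2 (Entrez gene 51393), a heat-responsive channel, read 3279 ± 177 against 3721 ± 203. These ranges lay apart, with the NT-shRNA line higher. For this gene the authors' deposited table holds a log2 ratio of -0.42 (95% CI -0.64 to -0.21; adjusted p = 0.0192). TRPV2 was 1 of 138 (7.31%) with a ratio this low among the 1889 genes with a mean intensity of 1000 or more. With the plain quotient of the intensities, which has no centring, TRPV2 stood at -0.18 and did not pass, at an adjusted p of 0.223. Both TRPV values rest on 1 probe each.

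TRPV6, a highly calcium-selective channel of epithelial calcium uptake, read 146 ± 8.77 against 134 ± 14.6 and overlapped. It had -0.22 in the authors' deposited table (95% CI -0.58 to 0.13). TRPV1, TRPV3 and TRPV5 were not detected.

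No TRPM gene passed. TRPM8, the channel opened by cold and menthol, read 86.0 ± 7.01 in NFAT1-shRNA cells and 114 ± 14.2 in NT-shRNA cells, so it counts as expressed through the line in which it is higher. It was detected in both lines, and value and error did not overlap. The authors' deposited table lists it with a log2 ratio of -0.70 (95% CI -1.13 to -0.28; adjusted p = 0.0514), just over the threshold. With p-values adjusted only over genes at 100 or more in either line it passed, at 0.0396, but TRPM8 is in that set only through its NT-shRNA value. It also passed with the quotient of intensities centred on the median gene, at 0.0161, and with an offset of 50 added before centring, at 0.0111. With the plain quotient of -0.41 its adjusted p was 0.157, which did not pass. Adjusted over all probes it was 0.0540, and with the second brightest probe taken for other genes 0.0566, and neither passed. TRPM8 has no second probe, so its own ratio was the same in both.

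TRPM2, a channel gated by ADP-ribose and oxidative stress, read 306 ± 22.2 against 278 ± 18.7. TRPM7, a magnesium- and calcium-permeable channel fused to a kinase, read 248 ± 28.2 against 214 ± 20.6. Both overlapped within their errors. Log2 ratios in the authors' deposited table were -0.23 for TRPM2 (95% CI -0.51 to 0.05), and -0.16 for TRPM7 (95% CI -0.58 to 0.26), and the plain quotients had the opposite sign (0.14 and 0.21). The other TRPM7 probe was not detected in either line. TRPM3, TRPM4, TRPM5 and TRPM6 were not detected.

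No TRPC channel gene, of 7 measured, was detected in either line. TRPC1, a subunit of cation channels opened after receptor signalling, read 44.7 ± 6.91 against 36.7 ± 9.73. TRPC4AP, which shares the symbol's start but is an adaptor protein rather than a channel, read 1006 ± 79.9 against 758 ± 72.6. Its plain quotient was 0.41 on the log2 scale, while the authors' deposited table gave 0.10 (95% CI -0.25 to 0.45). Polycystin-2 (PKD2), the cation channel mutated in polycystic kidney disease, was not detected and read 24.3 ± 4.50 against 13.9 ± 6.33.

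**Figure D3:**
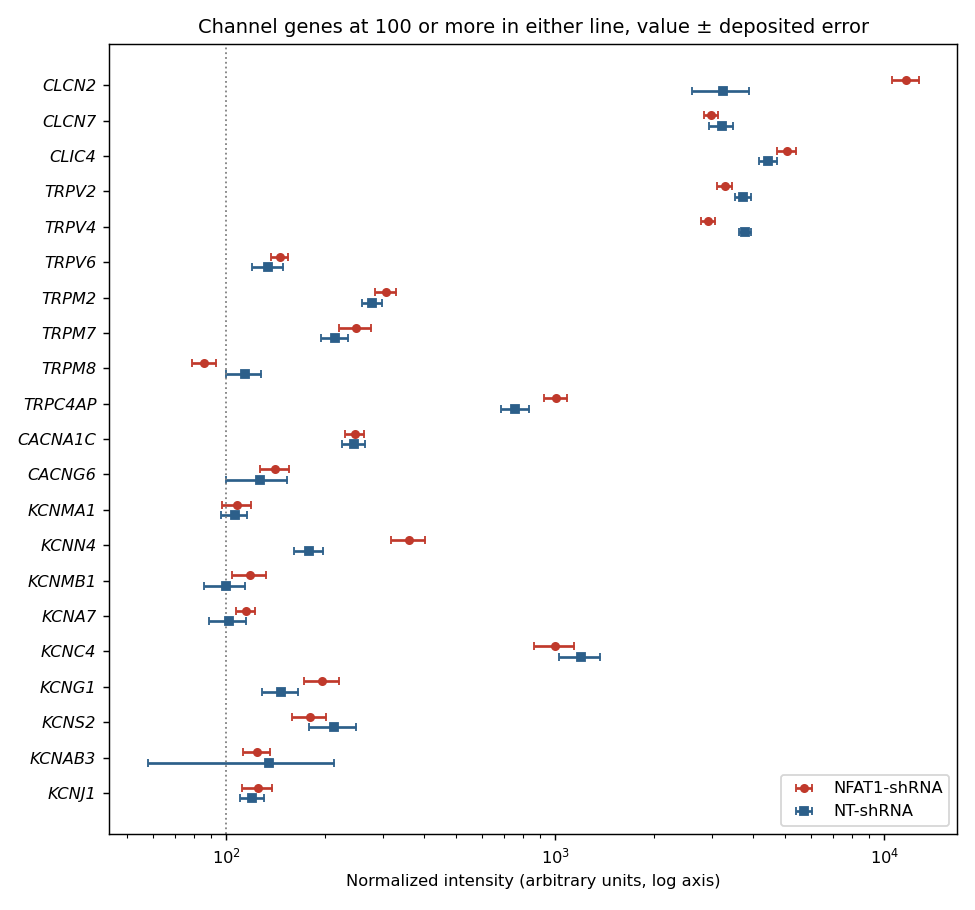
Normalized intensity (log axis, arbitrary units) with the deposited error for 21 expressed channel genes that have a ratio, in the NFAT1-shRNA line (circles) and the NT-shRNA line (squares), with a dotted line at 100. CLCN2 and KCNN4 lie higher in the NFAT1-shRNA line, TRPV4 and TRPM8 higher in the NT-shRNA line, and KCNAB3 has a wide error in the NT-shRNA line.

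Calcium-activated potassium channels let potassium out when calcium rises. KCNN4, the channel of intermediate conductance, read 359 ± 42.9 in NFAT1-shRNA cells and 179 ± 18.4 in NT-shRNA cells. The line labelled NFAT1-shRNA was higher and the ranges did not overlap, as held for 56.7% of all genes at 100 or more in either line. On the log2 scale the authors' deposited table put this ratio at 0.62 (95% CI 0.18 to 1.07; adjusted p = 0.0683), which did not pass. With the quotient of intensities centred on the median gene it passed (adjusted p of 0.0269), where 3.87% of all genes were called higher. With an offset of 50 added before centring it passed at 0.0215, where 4.82% of all genes were called higher. Not centred it also passed (0.000225), where 22.4% of all genes were called higher and 1.54% lower.

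KCNMA1, the pore of the large-conductance channel, read 108 ± 10.7 against 106 ± 9.55. For it the authors' deposited table gave -0.30 (95% CI -0.68 to 0.08). KCNMB1, a beta subunit of that channel best known from smooth muscle, read 118 ± 13.8 against 99.9 ± 14.3 and so reached 100 in the NFAT1-shRNA line only. Its ratio in the authors' deposited table was -0.07 (95% CI -0.59 to 0.45). The small-conductance genes KCNN1, KCNN2 and KCNN3 were not detected.

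Voltage-gated potassium channels repolarize excitable cells and are present in many tumour lines. KCNC4, of the fast-deactivating Shaw type, read 1001 ± 139 against 1200 ± 173. These ranges overlapped, and the authors' deposited table put the log2 ratio at -0.52 (95% CI -1.09 to 0.04; adjusted p = 0.354). KCNA7 read 115 ± 7.73 against 102 ± 13.4 and also overlapped. It stood at -0.14 (95% CI -0.56 to 0.27) in the authors' deposited table and at 0.17 as the plain quotient. KCNH1 and KCNH2, ether-a-go-go channels studied in tumours, were not detected, with intensities of at most 26.7 over both genes.

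KCNH7 shows what the limit of 100 can let through. It read 1357 in the NFAT1-shRNA line with an error of 2548, larger than the value, and -0.44 in the NT-shRNA line, and it was detected in neither. The authors' deposited table gives no ratio for it. Of the 7125 genes at 100 or more in either line, 34 were detected in neither line.

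Of the silent subunits, which do not form channels alone but alter those of their partners, KCNG1 and KCNS2 were expressed. KCNG1 read 196 ± 23.8 against 147 ± 18.1, with 0.05 in the authors' deposited table (95% CI -0.44 to 0.54). KCNS2 read 180 ± 21.5 against 213 ± 34.6, with -0.56 in the authors' deposited table (95% CI -1.13 to 0.01). The cytoplasmic beta subunit KCNAB3 read 124 ± 11.7 against 135 ± 77.5 and was detected in the NFAT1-shRNA line only. Its interval in the ratio of the authors' deposited table, -1.85 to 1.43, was the widest of the expressed genes. KCNJ1, an inward rectifier of the kidney, read 125 ± 13.2 against 120 ± 10.1 and overlapped. The sign turned between -0.29 (95% CI -0.67 to 0.09) in the authors' deposited table and the plain quotient of 0.06.

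Among voltage-gated calcium channels, CACNA1C, the pore of an L-type channel, was the only pore-forming gene of 10 at 100 or more. Its brightest probe read 247 ± 15.9 in NFAT1-shRNA cells and 245 ± 20.3 in NT-shRNA cells. The plain values were alike, with a log2 quotient of 0.01, while the authors' deposited table gave -0.36 (95% CI -0.66 to -0.07; adjusted p = 0.258). The other 4 CACNA1C probes read at most 14.9 and were not detected. CACNA1H, the pore of a T-type channel, read 62.3 ± 5.71 against 65.9 ± 7.65 and was detected in the NT-shRNA line only.

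CACNG6, a gamma subunit, read 141 ± 14.2 against 127 ± 26.6 and overlapped. Its sign depended on the scale, with -0.20 (95% CI -0.86 to 0.46) in the authors' deposited table and 0.15 as the plain quotient. The beta subunit gene CACNB3, below 100, read 80.3 ± 7.18 against 35.6 ± 5.999. It was detected in the NFAT1-shRNA line only and has no ratio in the authors' deposited table. Its NFAT1-shRNA value was 1.08-fold above the dimmest signal detected in NT-shRNA cells once the median shift was removed. This figure leaves out the error. No pore-forming sodium channel gene was detected.

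The chloride intracellular channel protein CLIC4, which exists in soluble and membrane forms, read 5060 ± 338 against 4440 ± 288 and overlapped. It had -0.05 in the authors' deposited table (95% CI -0.31 to 0.21). CLIC2, CLIC3, CLIC5 and CLIC6 were not detected, and CLIC1 is not analysed here. Of the 2-pore-domain potassium channels, which carry background current, KCNK15 alone was detected, in the NT-shRNA line only, with 79.3 ± 11.3 against 74.6 ± 9.40.

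As a group, the expressed channel genes had a median below 0 on the authors' scale and above 0 as plain quotients. Of the 22 with a ratio in the authors' deposited table, 17 were below 0 (77.3%), against 49.1% of all genes at 100 or more in either line. Their median ratio in the authors' deposited table was -0.22, where all genes at 100 or more had 0.01. The median plain quotient of the same genes was 0.13, where all genes at 100 or more had 0.32, and intensities of the NFAT1-shRNA line were 1.23-fold higher for the median gene. For 10 of the 22 genes (45.5%) the ratio of the authors' deposited table and the plain quotient had opposite signs (CACNA1C, CACNG6, CLIC4, KCNA7, KCNJ1, KCNMA1, KCNMB1, TRPM2, TRPM7 and TRPV6), against 32.5% of all genes at 100 or more. Both medians lay below those of all such genes, and no test of the group was made.

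**Figure D4:**
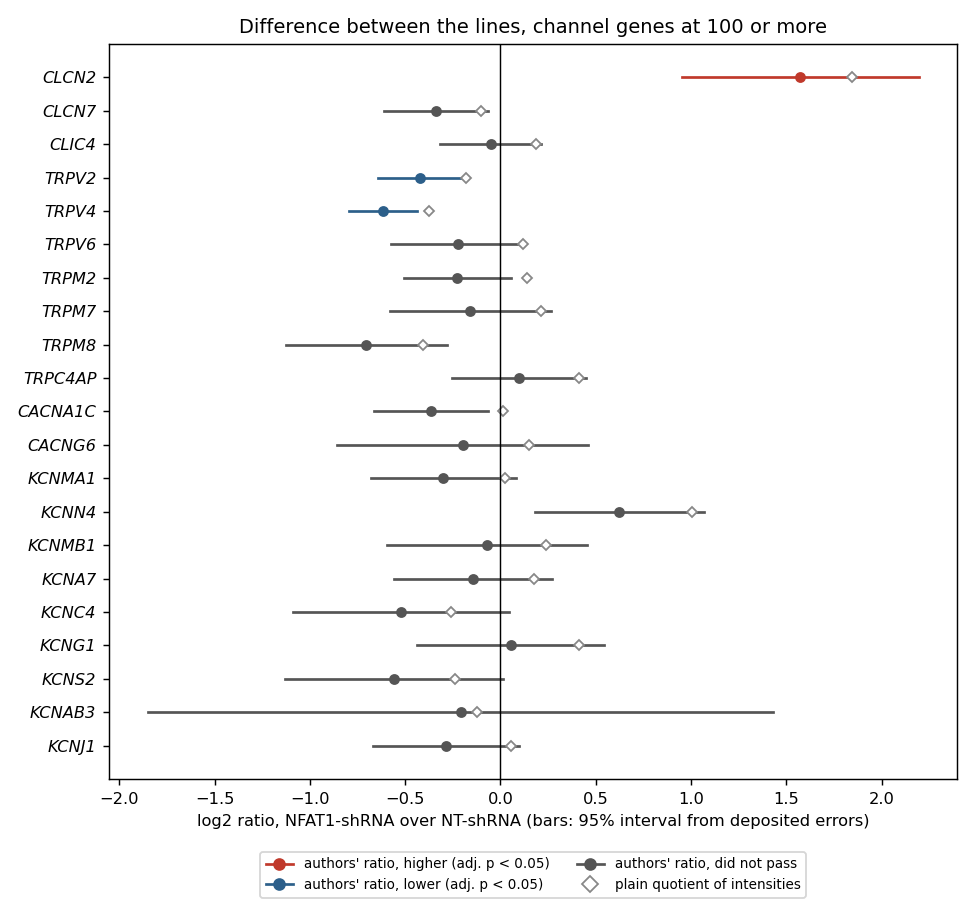
Log2 ratio, NFAT1-shRNA over NT-shRNA, from the authors' deposited table for 21 expressed channel genes (filled circles) with the 95% interval from the deposited errors (bars), and the plain quotient of the intensities (open diamonds). CLCN2 is higher and TRPV4 and TRPV2 are lower past the adjusted threshold, and 10 genes have circle and diamond on opposite sides of 0.

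Value and error of the uncentred intensities did not overlap for 8 of the 22, against 61.6% of all genes at 100 or more in either line. Without overlap and higher in NFAT1-shRNA cells were 56.7% of all such genes. On the authors' scale the 95% CI excluded 0 for 7 of the 22 (31.8%), against 26.1% of all such genes. Among the 8 without overlap, CLCN2, KCNN4, TRPC4AP and KCNG1 were higher in the NFAT1-shRNA line and TRPV2, TRPV4 and TRPM8 in the NT-shRNA line. The median deposited error of the 22 was 8.81% of the signal in NFAT1-shRNA cells and 9.92% in NT-shRNA cells, against 7.43% and 9.83% for all such genes. For the 19 that did not pass, the 95% interval reached a median of 0.42 to either side on the log2 scale (0.26 to 1.64).

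Further probes of the expressed genes gave no detected signal. Of the 23 expressed genes, 6 had further probes, among them CACNA1C, KCNC4, KCNH7, KCNMA1 and TRPM7. All 9 further probes were undetected in both lines, with intensities of at most 16.8. The direction of no expressed gene could therefore be checked on another probe with signal.

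A list of 83 other channels and calcium entry proteins, whose symbols fall outside the rule, was set beside the channel genes. Of 37 with a ratio, 2 were higher, 1 was lower and 34 did not pass, where 3.35% of all genes were called higher and 4.19% lower, so the count is near the background. Their median ratio in the authors' deposited table was 0.02, where all genes had -0.02. ITPR3, an inositol trisphosphate receptor that releases calcium from the endoplasmic reticulum, read 3873 ± 174 against 5102 ± 364. The authors' deposited table put its log2 ratio at -0.63 (adjusted p = 0.00436). P2RX7, a cation channel gated by extracellular ATP, read 640 ± 31.9 against 286 ± 49.1, with 0.83 in the authors' deposited table (adjusted p = 0.0174). BEST1, a calcium-activated chloride channel, read 401 ± 26.2 against 187 ± 12.3, with 0.73 in the authors' deposited table (adjusted p = 4.49e-05).

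CLNS1A, a protein linked to chloride currents and to snRNP assembly, read 7082 against 5067, and TMEM38B, a potassium channel of the endoplasmic reticulum, 826 against 634. Neither passed, with 0.26 and 0.06 in the authors' deposited table. Of 15 ion pumps, cotransporters and their kinases with a ratio, out of 32 listed, 1 was higher and none lower, a count near the 7.55% called over all genes. It was ATP1B1, a beta subunit of the sodium pump, which read 605 ± 39.9 against 288 ± 35.6, with 0.73 in the authors' deposited table (adjusted p = 0.00103).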

How the data were processed

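Per the file headers, the authors' deposited table gives for each line a normalized intensity on a linear scale, an error in the same unit and a detection p-value, and for each probe a log2 ratio (NFAT1-shRNA over NT-shRNA) with its p-value. The sources used here state neither the normalization, nor how 3 replicates were combined, nor the tests. Intensities in the deposited series matrix differed by at most 5e-07. RNA integrity numbers were 9.3 to 9.9, per the labels' protocols.

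Python 3.11.15, pandas 2.3.3, numpy 2.4.6 and scipy 1.17.1 were used. A gene took the values of its probe with the greatest mean over both lines. The authors' p-values were adjusted by the Benjamini-Hochberg method over 9516 genes, at a threshold of 0.05. The 95% CI takes the deposited errors as normal standard errors. Bounds use the dimmest detected signal of a line (78.3 for NFAT1-shRNA, 60.4 for NT-shRNA) after removing the median shift of 0.30 on the log2 scale. They leave out the deposited errors. The adjustment was tried on simulated data with normal noise based on the deposited errors, which cannot check the authors' p-values. Alternatives changed the scale, the offset, the probe, the minimum and the genes adjusted over. On other scales, the log2 difference was divided by its propagated error. All 173 genes matched RefSeq of GRCh38.p14 by Entrez number, and 3 probes naming several genes were left out.

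The naming rule covered expressed genes, with full statistics for those that passed, the 3 largest ratios and the brightest gene of each family, and a set of channels named whatever their values. The genes detected below 100 were added after their values were seen. Members and lists were chosen with earlier results of these data known. The counts cover all 173 genes, but some genes are not reported here by name or drawn. Only few arrays lie behind each value, which limits its precision.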

Additional observations from a re-analysis of the deposited data

How the results depend on the processing

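No paired analysis was possible because the table gives 1 value per line, and for the same reason no replicate could be left out. Channel genes changed numbered 4 (1 higher, 3 lower). Adjusting over all probes or taking the second brightest probe gave 3, without CLCN1 (7.39% and 6.62% of all genes). CLCN1, CLCN2, TRPV2 and TRPV4 have no second probe. Their own ratios were therefore the same in both settings, and only the adjustment over other genes differed. Adjusting over genes at 100 or more gave 4 (11.0%), with TRPM8 in place of CLCN1. TRPM8 is in that set only through its NT-shRNA value, and CLCN1 is below 100 and so was not tested there. The plain quotient gave 5, 4 higher (CLCN2, CLCN3 and KCNN4 among them) and 1 lower (TRPV4), where 22.4% and 1.54% of all genes were called. The centred quotient gave 7, 2 higher (KCNN4 added) and 5 lower (CLCN7 and TRPM8 added), where 3.87% and 5.82% of all genes were called. The offset of 50 gave 6, 2 higher (KCNN4 added) and 4 lower (TRPM8 added), where 4.82% and 4.73% of all genes were called. CLCN2 and TRPV4 were called in each. For other channels the centred quotient gave 5 calls, 2 of them lower (CLCC1 and ITPR3), against 3 and 1, where 9.69% of all genes were called. Expressed channel genes numbered 44 with a minimum of 50 and 14 with 200, against 23. Their median ratio was 0.13 with the plain quotient, against -0.22. An alternative chosen after seeing the data, detection in both lines, left 21 genes with a median of -0.22. The plain quotient turned the sign of 10 genes, none of which passed on either scale, to 0.0107 for CACNA1C, 0.15 for CACNG6, 0.19 for CLIC4, 0.17 for KCNA7, 0.0557 for KCNJ1, 0.0228 for KCNMA1, 0.24 for KCNMB1, 0.14 for TRPM2, 0.21 for TRPM7 and 0.12 for TRPV6. The cause of these changes was not tested.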
